A study of Mus musculus with 9 samples.

Results

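The miR-26 family was followed in small RNA-seq of extracellular vesicles (EVs) from bronchoalveolar lavage fluid (BALF), the saline wash of the airways. Its members were every entry of the hairpins mir-26a-1, mir-26a-2 and mir-26b, with both arms, both genomic copies of miR-26a and all isomiRs (forms whose 5′ end lies upstream or downstream of the annotated start). This gave 30 of 1308 entries, from 3 of 299 hairpins. Female C57BL/6J mice of 8 to 10 weeks breathed filtered air (FA) or ozone (O3) at 1 or 2 ppm for 3 h in a whole-body chamber, and BALF was collected the next day. Each exposure had 3 libraries, and each library was a pool of BALF from 4 mice in the FA group and from 3 mice in both O3 groups, so the number of mice in a pool and the exposure cannot be told apart. No genotype or drug differed between the groups.

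A miRNA is cut from the stem of a hairpin RNA that leaves a 5p and a 3p arm, one of which is usually kept at a much higher level. Loaded into an Argonaute protein, it pairs with target mRNAs mainly through its seed, bases 2 to 8 from the 5′ end, so a start shifted by a single base presents another seed. miR-26 is expressed in many tissues, the lung among them, and its best known target is Ezh2, a histone methyltransferase. The hairpins lie within genes of the small C-terminal domain phosphatases.

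On mouse build mm9, mir-26a-1 lies on the plus strand at chr9:118940914-118941003, in an intron of Ctdspl. The second copy, mir-26a-2, lies on the plus strand at chr10:126432586-126432669 in Ctdsp2, where 1 annotated exon of a Ctdsp2 transcript overlaps it. mir-26b lies on the plus strand at chr1:74440884-74440968, in an intron of Ctdsp1. The mm9 letters at all 3 positions equal the RefSeq hairpins of build GRCm38.p6.

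The hairpins are shown first because they decide which reads can be told apart, with the mature arms in capitals:
mir-26a-1: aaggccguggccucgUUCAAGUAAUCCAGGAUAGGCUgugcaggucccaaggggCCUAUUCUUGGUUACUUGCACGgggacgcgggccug
mir-26a-2: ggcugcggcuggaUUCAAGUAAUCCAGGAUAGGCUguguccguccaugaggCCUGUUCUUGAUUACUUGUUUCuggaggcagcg
mir-26b: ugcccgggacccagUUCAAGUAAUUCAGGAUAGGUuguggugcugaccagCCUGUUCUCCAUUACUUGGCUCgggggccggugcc

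The mature arms are shown for their seeds, which are in capitals:
miR-26a-5p: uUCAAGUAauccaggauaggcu
miR-26b-5p: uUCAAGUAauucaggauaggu
miR-26a-1-3p: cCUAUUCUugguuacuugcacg
miR-26a-2-3p: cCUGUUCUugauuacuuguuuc
miR-26b-3p: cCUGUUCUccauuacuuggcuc

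miR-26a-5p is the same 22 bases in both copies. Counted from 1 at the 5′ end of miR-26a-5p, miR-26b-5p differs by C11U and C21U and is 21 bases long. The 5p arms share the seed UCAAGUA, which 2 of 1679 mature mouse miRNA names in RefSeq carry, miR-26a-5p and miR-26b-5p. The 3p arms of the copies differ at 6 of 22 positions. miR-26a-2-3p shares its seed CUGUUCU with miR-26b-3p and with 2 names outside the family, miR-6932-3p and miR-7039-3p, while miR-26a-1-3p has CUAUUCU. Directly before the 5p arm the copies differ (G in mir-26a-1, A in mir-26a-2), and after it they share the next 3 bases. By these letters, a 3p read or a read starting 1 base early can be placed in one copy if it matches exactly. An unshifted 5p read that ends within these bases cannot.

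Levels were deposited as reads per 1000000 reads mapped to miRNAs (RPMMM). The number of miRNA reads behind them was estimated from the step between low values, at 535534 to 773272 for FA, 555108 to 860959 for 1 ppm and 281538 to 300913 for 2 ppm. The lowest value listed above 0 stood for 10.0 to 10.5 reads in the 9 libraries, so 0 means under about 10 reads and not absence. At 2 ppm, miR-2137 made up 19.5% of the miRNA reads on average, against 4.09% at 1 ppm and 0.266% in FA. Another 25.7% at 2 ppm (3.99% and 0.361% in the other groups) came from 8 hairpins whose names RefSeq does not hold. A share of the total falls when others rise. The 5p arms, the counts of calls and the summed family are therefore also given below under other scalings. Levels and calls of the 3p arms, isomiRs and other miRNAs are on the deposited total unless another scaling is named. Fewer copies in a vesicle cannot be told from fewer vesicles that carry them.

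The miR-26 family held a large share of all miRNA reads in FA and at 1 ppm, and a much smaller one at 2 ppm. Its summed level was 99435, 94988 and 92134 RPMMM in the FA pools. At 1 ppm it was 96370, 96049 and 105681 RPMMM, and at 2 ppm 45854, 42857 and 47201 RPMMM. As a percentage of miRNA reads this was 9.55 ± 0.368 (SD, n = 3) in FA, 9.94 ± 0.547 at 1 ppm and 4.53 ± 0.222 at 2 ppm. All 2 ppm pools lay below all others, and the 1 ppm pools overlapped with FA. The mean at 2 ppm was 0.474 of that in FA and 0.456 of that at 1 ppm (two-sided exact permutation test, p = 0.1 in both, the smallest that 3 against 3 can give), and the mean at 1 ppm was 1.04 times that in FA (exact p = 0.4). The drop came at 2 ppm alone, so a test for an order over all 3 exposures was not passed: of the 27 pairs that set a pool against one of a higher concentration, 7 rose (exact permutation p = 0.189).

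Most of the family was miR-26a-5p. The mir-26a-1-5p entry stood at 38187, 37086 and 36061 RPMMM in FA, at 38286, 37849 and 42043 at 1 ppm, and at 18026, 16836 and 18649 at 2 ppm. The mir-26a-2-5p entry was above it in 9 of 9 pools by at most 0.697%, so the copies cannot be weighed against each other by this arm. Added, they made 76499, 74272 and 72187 RPMMM in FA, 76840, 75823 and 84120 at 1 ppm, and 36126, 33710 and 37315 at 2 ppm. Ranked among all entries by mean level, mir-26a-2-5p and mir-26a-1-5p were at places 3 and 4 in FA, 3 and 4 at 1 ppm, and 13 and 14 at 2 ppm. About 4873 to 5424 reads stood behind mir-26a-1-5p even in the shallow 2 ppm libraries.

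miR-26b-5p, the sister with the same seed, stood at a lower level and also fell at 2 ppm. It was at 18420, 16018 and 15176 RPMMM in FA, at 15029, 15004 and 16932 at 1 ppm, and at 7535, 6870 and 7925 at 2 ppm. The 2 ppm pools lay below all others, and the 1 ppm pools overlapped with FA. Its place by mean level went from 18 in FA and 17 at 1 ppm to 31 at 2 ppm. The 1 ppm mean was 0.947 of that in FA, against 1.06 for miR-26a-5p of both copies. On the deposited total, 2 of 27 pairs rose for miR-26b-5p (exact permutation p = 0.00952). For miR-26a-5p 8 of 27 rose (exact permutation p = 0.277), and neither p was adjusted. The order of miR-26b-5p was not tested under other scalings. Its log2 difference between 1 ppm and FA was -0.08 on the deposited total. It was -0.02 on the total without miR-2137 and 0.01 with median-of-ratios scaling. On the total without miR-2137 and the unmatched hairpins it was 0.04.

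**Figure D1:**
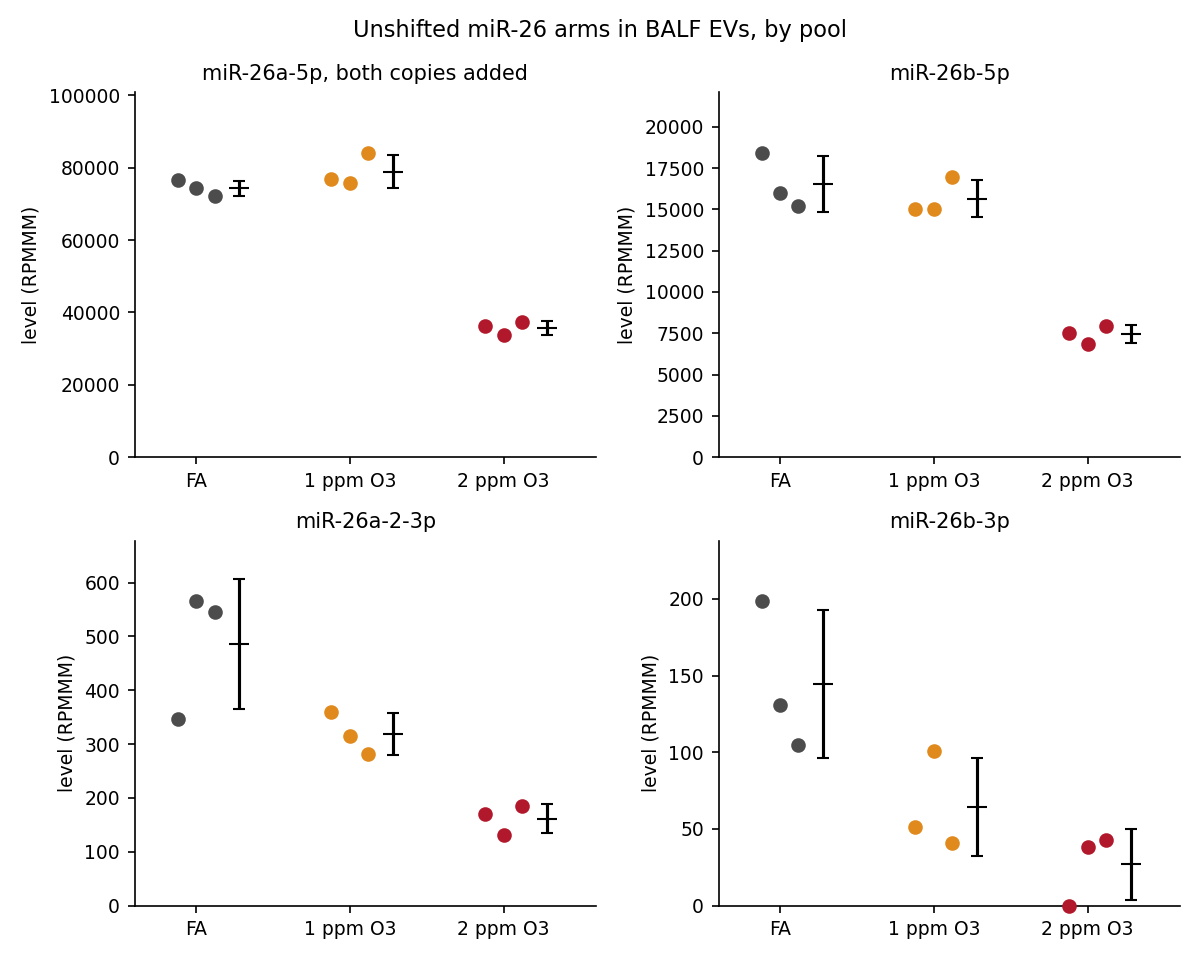
Level in RPMMM of 4 unshifted miR-26 arms in each pool (points) by exposure, with the mean ± SD of 3 pools beside them. Both 5p arms lie lower at 2 ppm than in every FA and 1 ppm pool, with miR-26a-5p at 33710 to 37315 RPMMM, and miR-26b-3p is listed at 0 in one 2 ppm pool.

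The 3p arms are the passenger strands of these hairpins and were scarce. miR-26a-2-3p was at 346, 565 and 545 RPMMM in FA, at 359, 315 and 281 at 1 ppm, and at 169, 131 and 185 at 2 ppm. The 2 ppm pools lay below all others, on 38 to 52 reads. miR-26b-3p was at 198, 131 and 105 RPMMM in FA, at 51.6, 101 and 40.6 at 1 ppm, and at 0, 38.0 and 42.6 at 2 ppm. Here both O3 groups lay below FA without overlap, while 2 ppm overlapped with 1 ppm, and no 2 ppm pool had more than 12 reads. The 3p arm of the first copy, miR-26a-1-3p, was at 0 in 8 of 9 pools and at 29.95 RPMMM in the other, a 1 ppm pool. miR-26a-2-3p was above both miR-26a-1-3p and miR-26b-3p in 9 of 9 pools.

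Entries were tested with limma on log2(RPMMM + 1) over all entries with a mean above 50 RPMMM, 461 in all, in one model of the 9 pools, and were called differentially expressed (DE) at a Benjamini-Hochberg adjusted p under 0.05 and at least a 2-fold change. Of the 30 members 16 entered, 5 of mir-26a-1, 6 of mir-26a-2 and 5 of mir-26b. The other 14 had means of 2.11 to 47.8 RPMMM, and 12 of these were at 0 in all 2 ppm pools. The minimum of about 10 reads stood for 33.2 to 35.5 RPMMM at 2 ppm and 11.6 to 18.7 in the other pools. These zeros alone therefore do not show a fall. Among the 14 were miR-26a-1-3p and isomiRs shifted by up to 6 bases. Copies with the same sequence have an entry each, so the 16 entries are not independent.

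At 1 ppm no miR-26 entry was called against FA, 0 of 16, where 13.2% of all entries were DE and 27.3% had an unadjusted p under 0.05 (0 of 16 members). Without overlap, 1 of 16 lay below FA (miR-26b-3p, where 18.4% of all entries did) and 2 of 16 above it (the +2 form of miR-26a-5p in both copies, where 14.8% did). miR-26a-5p differed by 0.08 on the log2 scale for mir-26a-1-5p (95% interval -0.09 to 0.26, limma adjusted p = 0.594) and by 0.09 for mir-26a-2-5p. miR-26b-5p differed by -0.08 (95% interval -0.31 to 0.16, limma adjusted p = 0.753). These intervals do not reach a 2-fold change in either direction. For miR-26b-3p the interval was wide, with a difference of -1.21 and an interval of -4.23 to 1.81. The model shares 1 spread among all exposures, and the SE of this difference was 1.34 with all 9 pools and 0.542 without the 2 ppm pool listed at 0.

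At 2 ppm, 7 of 16 members were DE against FA, all of them lower, where 29.3% of all entries were DE and lower. By the adjusted p alone 11 of 16 members were lower, against 38.0% of all entries, and 14 of 16 did not overlap with FA, against 48.2%. No member was DE and higher (14.3% of all entries were). The median log2 fold change over the members was -1.06, and over all entries -0.83.

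The called entries were both copies of miR-26a-5p, miR-26b-5p, 2 3p arms and 2 isomiRs. mir-26a-1-5p fell by 1.06 on the log2 scale (SE 0.0785, limma adjusted p = 3.33e-06), a ratio of 0.480. miR-26b-5p fell by 1.15 (SE 0.104, limma adjusted p = 1.09e-05), a ratio of 0.451. miR-26a-2-3p fell by 1.56 (SE 0.279, limma adjusted p = 0.00117). miR-26b-3p fell by 3.56 (SE 1.34, limma adjusted p = 0.0487), and fell by 1.77 without the pool listed at 0. Its call was lost in 12 alternatives, for example with median-of-ratios scaling (limma adjusted p = 0.119) and without FA pool 1 (limma adjusted p = 0.121). Of the isomiRs, the mir-26a-2-5p form starting 1 base early fell by 1.24 (limma adjusted p = 0.0131) and the miR-26b-5p form starting 1 base late by 1.04 (limma adjusted p = 0.0104). The +1 and +2 forms of miR-26a-5p passed the adjusted p in both copies but not the fold, with log2 differences of -0.89 and -0.85.

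Between 2 and 1 ppm, 10 of 16 members were DE, all lower, where 22.3% of all entries were DE and lower, and none was higher, where 11.3% were. By the adjusted p alone 11 of 16 were lower (32.1% of all entries), and 12 of 16 lay below 1 ppm without overlap (37.5%). This comparison shares its 2 ppm pools with the one against FA. miR-26a-5p fell by 1.14 for both copies and miR-26b-5p by 1.07. The +1 and +2 forms of miR-26a-5p were called here in both copies, with log2 differences from -1.06 to -1.04, and the 3p arms were not: miR-26a-2-3p differed by -0.98 (limma adjusted p = 0.0202) and miR-26b-3p by -2.34 (limma adjusted p = 0.178). The median over the members was -1.07, and over all entries -0.69.

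**Figure D2:**
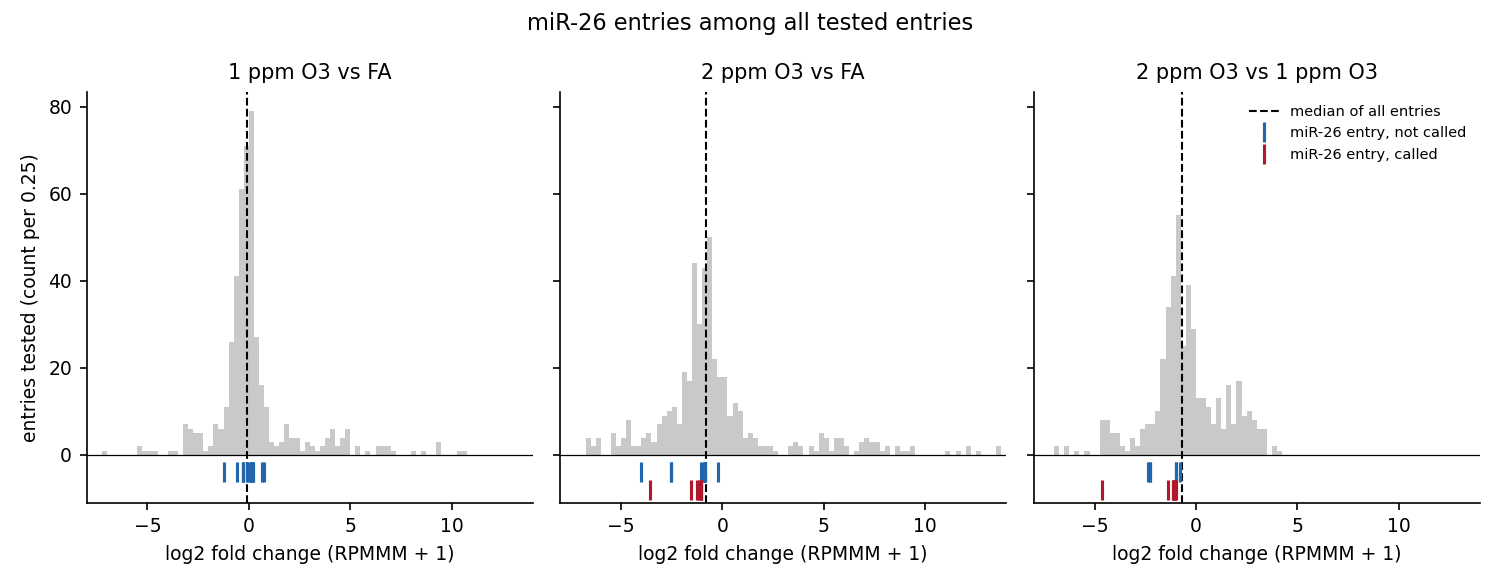
Number of tested entries (grey, 461 in all) by log2 fold change in each comparison, with the miR-26 entries as ticks under the axis, red where called DE and blue where not. No tick is red at 1 ppm, and those of the abundant 5p arms lie left of the dashed median of all entries in both comparisons with 2 ppm.

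The size of the drop at 2 ppm depended on the total it was measured against, and its direction for the unshifted 5p arms did not in the 4 scalings run. Against the total without miR-2137, mir-26a-1-5p differed from FA by -0.75 and miR-26b-5p by -0.84. There 1 of 16 members was DE and lower, where 97 of all 477 entries tested were. With median-of-ratios scaling mir-26a-1-5p and miR-26b-5p differed by -0.36 (limma adjusted p = 0.00421) and -0.45 (limma adjusted p = 0.00513). No member was DE, where 34 of all 458 entries were DE and lower. Against the total without miR-2137 and without the 8 unmatched hairpins these arms differed by -0.20 (limma adjusted p = 0.0464) and -0.29 (limma adjusted p = 0.0374). Of 18 members tested none was DE, where 28 of all 498 entries were DE and lower. The scalings moved the median of all entries from -0.83 to -0.51, -0.09 and 0.05 in that order, and both 5p arms lay below it each time.

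The summed family at 2 ppm was 0.588, 0.770 and 0.861 of FA under these 3 scalings, with all 2 ppm pools below all FA pools each time (exact p = 0.1). Set against FA, the 1 ppm mean was 1.08, 1.10 and 1.12 times as high under them, without overlap in the last 2 (exact p = 0.1). With the deposited values it was 1.04 times, with overlap. A mean slightly above FA at 1 ppm and below it at 2 ppm was thus seen under every scaling, and whether the 1 ppm pools overlapped with FA depended on it.

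**Figure D3:**
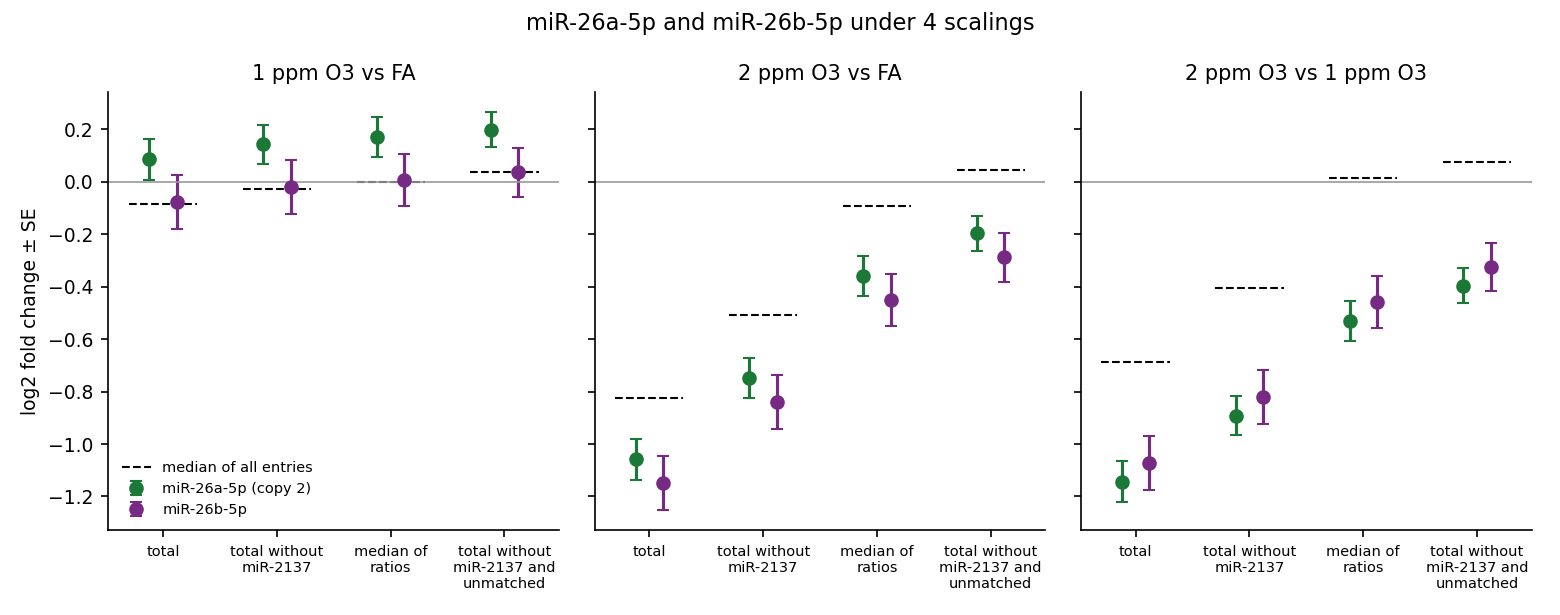
log2 fold change ± SE of mir-26a-2-5p (green) and miR-26b-5p (purple) in each comparison under 4 scalings, with the median of all entries as a dashed line. The differences between 2 ppm and FA shrink from -1.06 and -1.15 with the deposited totals to -0.20 and -0.29 with the last scaling, and stay below the dashed line.

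Ratios inside a pool do not depend on the scaling. miR-26a-5p, both copies added, was 4.15, 4.64 and 4.76 times as high as miR-26b-5p in FA, 5.11, 5.05 and 4.97 times at 1 ppm, and 4.79, 4.91 and 4.71 times at 2 ppm. The 1 ppm pools were all above the FA pools (5.04 ± 0.0728 against 4.52 ± 0.320, SD, n = 3, exact p = 0.1) and all above the 2 ppm pools (exact p = 0.1), and the 2 ppm pools overlapped with FA (exact p = 0.2). No order with concentration was found (17 of 27 pairs rose, exact permutation p = 0.519). The members with this seed thus kept a balance between 4.15 and 5.11 to 1 in all pools.

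Other abundant families were lower at 2 ppm too, let-7 by a larger factor than miR-26 and miR-30 by a smaller one. The let-7 family, regulators of growth and differentiation encoded by 12 hairpins here, went from 236785 ± 10515 RPMMM in FA to 215400 ± 11301 at 1 ppm and 89123 ± 8677 at 2 ppm. The ratio of miR-26 to let-7 was 0.427, 0.382 and 0.403 in FA, 0.425, 0.471 and 0.490 at 1 ppm, and 0.557, 0.497 and 0.477 at 2 ppm. It rose in 25 of 27 pairs (exact permutation p = 0.00952), with an adjusted p of 0.0476 over the 5 tests for order of the design and 0.0667 over all 14 shares and ratios examined. The 2 ppm pools were above the FA pools without overlap, by 1.26 times (exact p = 0.1). At 2 ppm the mean of let-7 was 0.376 of that in FA, against 0.474 for miR-26.

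The miR-30 family, 6 hairpins of broadly expressed miRNAs, had a mean at 2 ppm of 0.540 of that in FA. The ratio of miR-26 to miR-30 was 0.664, 0.707 and 0.771 in FA, 0.683, 0.689 and 0.719 at 1 ppm, and 0.664, 0.601 and 0.608 at 2 ppm. It rose in 5 of 27 pairs (exact permutation p = 0.0738), and the 2 ppm pools lay below the 1 ppm pools (exact p = 0.1) and overlapped with FA (exact p = 0.2). The result turned on small choices: 1 of 27 pairs rose with copies averaged instead of added (exact p = 0.00357), and 1 of 21 without FA pool 1 (exact p = 0.0107).

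miR-23a-3p served the study as reference in RT-qPCR. The paper chose it for its low variation between samples in small RNA sequencing, so it is not an independent reference for these levels. miR-23a-3p stood at 19708 ± 497 RPMMM in FA, 23858 ± 304 at 1 ppm and 21114 ± 2842 at 2 ppm. Its log2 difference between 2 ppm and FA was 0.09 (limma adjusted p = 0.449). The ratio of miR-26a-5p to it was 3.91, 3.85 and 3.56 in FA, 3.21, 3.22 and 3.49 at 1 ppm, and 1.64, 1.88 and 1.60 at 2 ppm. All pools of a higher concentration lay below all pools of a lower one: 0 of 27 pairs rose (exact permutation p = 0.00119, the smallest this design can give, adjusted p = 0.0167 over the 14 shares and ratios). On this ratio, unlike on the RPMMM scale, the 1 ppm pools lay below FA without overlap. miR-23a-3p itself was above FA in all 1 ppm pools, with a log2 difference of 0.28 (limma adjusted p = 0.112).

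The 3p arms together made up 0.604, 0.749 and 0.738% of the family level in FA, 0.458, 0.491 and 0.326% at 1 ppm, and 0.370, 0.395 and 0.482% at 2 ppm. Both O3 groups lay below FA without overlap (exact p = 0.1 in both), and 4 of 27 pairs rose (exact permutation p = 0.0417, adjusted p = 0.194 over the 14). This share was picked after its values were seen. The miRNA reads of the 1 ppm libraries overlapped in number with those of FA and the 2 ppm libraries had fewer, and the part of depth and of the 10-read minimum in this share was not tested. The level of miR-26a-2-3p as a share of all entries of both miR-26a hairpins, isomiRs included, overlapped between all exposures (0.624 ± 0.167% in FA, 0.387 ± 0.0631% at 1 ppm and 0.430 ± 0.0540% at 2 ppm).

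**Figure D4:**
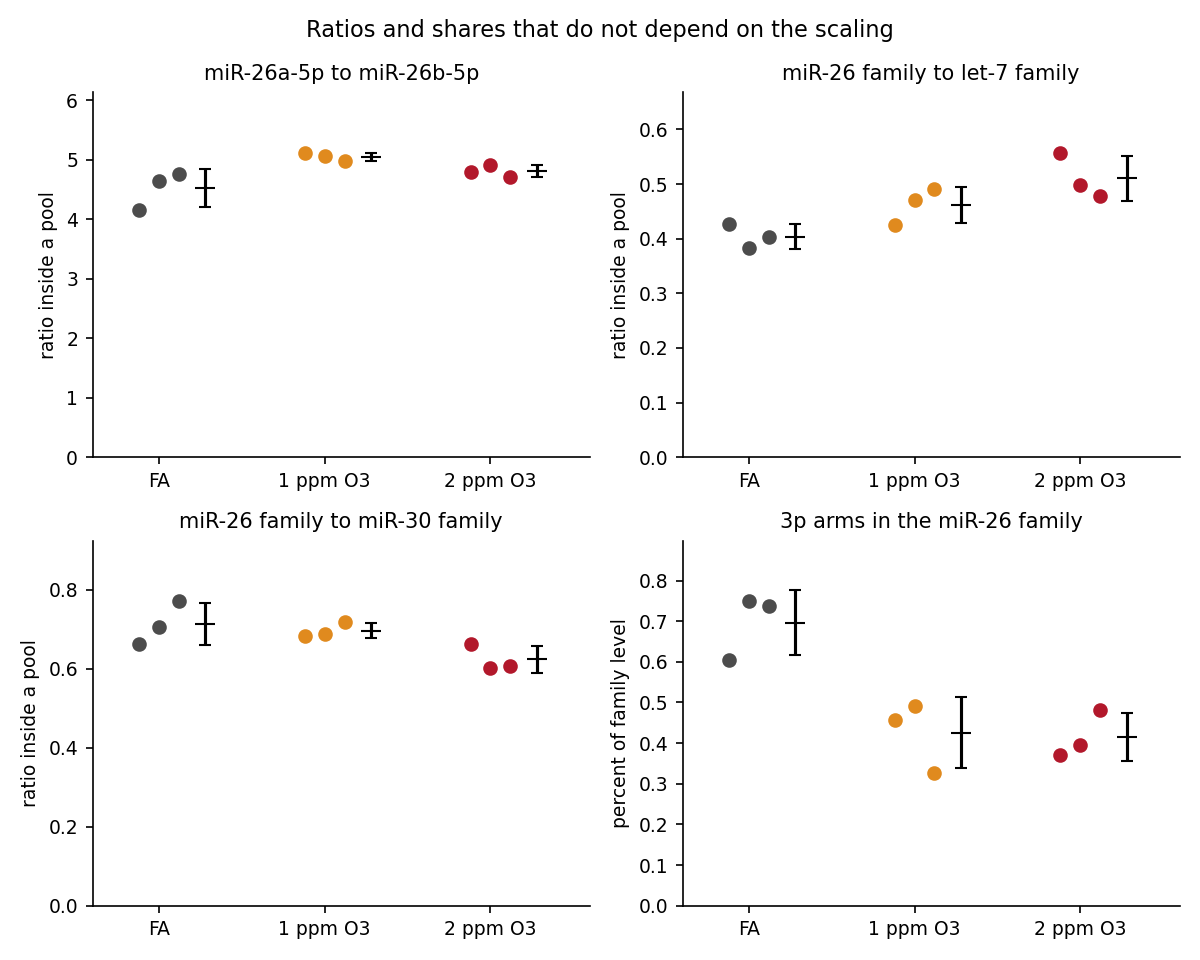
Ratio of miR-26a-5p to miR-26b-5p, ratios of the miR-26 family to the let-7 and miR-30 families, and percentage of the family level in 3p arms, by pool (points) and exposure, with mean ± SD of 3 pools. The ratio to let-7 runs from 0.382 in FA to 0.557 at 2 ppm, and the 3p share lies at 0.604% or more in FA and at 0.491% or less in both O3 groups.

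IsomiRs were a small part of the family's level, although 24 of its 30 entries were shifted forms. They held 4.23 ± 0.240% of the level in FA, 4.43 ± 0.501% at 1 ppm and 4.33 ± 0.627% at 2 ppm, and all exposures overlapped (14 of 27 pairs rose, exact permutation p = 1). Of the shifted level, 88.4 to 93.3% per pool started downstream of the annotated end. Here + in an entry name was read as a downstream (late) start and - as an upstream (early) one, which no source used here defines. Forms starting 1 base late or early, and the miR-26a form 2 bases late, are given with their own seeds in capitals:
mir-26a-1-5p, 1 base late: uCAAGUAAuccaggauaggcu
mir-26a-1-5p, 2 bases late: cAAGUAAUccaggauaggcu
mir-26b-5p, 1 base late: uCAAGUAAuucaggauaggu
mir-26a-1-5p, 1 base early: gUUCAAGUaauccaggauaggcu
mir-26a-2-5p, 1 base early: aUUCAAGUaauccaggauaggcu
mir-26b-5p, 1 base early: gUUCAAGUaauucaggauaggu

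These are the hairpin's letters from the shifted start to the annotated 3′ end, since the table gives no 3′ ends. None of these shifted seeds is the seed of any of the 1679 mature mouse names. The form starting 1 base late reached 2.37 to 3.23% of miR-26a-5p and 2.41 to 5.22% of miR-26b-5p, higher for miR-26b in 7 of 9 pools. For miR-26a it was 2.68 ± 0.327% in FA, 2.82 ± 0.345% at 1 ppm and 3.00 ± 0.288% at 2 ppm, and the exposures overlapped.

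With the signs read in this way, shifted forms separated the copies only where the hairpins differ. This pattern goes with that reading of the signs and is not a test of it. The entries starting 2 to 5 bases late were identical between mir-26a-1 and mir-26a-2 in 9 of 9 pools, and those 1 base late in 8 of 9. The entries starting 1 base early differed in 9 of 9 pools and were always higher for mir-26a-2. For mir-26a-1 this form was at 74.6, 111 and 113 RPMMM in FA, at 128, 75.7 and 52.3 at 1 ppm, and at 41.5, 62.2 and 39.1 at 2 ppm. For mir-26a-2 it was at 225, 177 and 246 RPMMM in FA, at 210, 332 and 177 at 1 ppm, and at 91.4, 96.7 and 81.7 at 2 ppm. mir-26a-2 gave 60.9 to 81.5% of this form in the 9 pools, with no order across exposures (12 of 27 pairs rose, exact permutation p = 0.831). At 2 ppm the reads numbered 11 to 18 for mir-26a-1 and 23 to 28 for mir-26a-2. The 3p arm and this form were thus higher for mir-26a-2 in every pool. The entries starting 2 bases early were at 0 for both copies in 6 of 9 pools, higher for mir-26a-2 in 2 and higher for mir-26a-1 in 1.

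**Figure D5:**
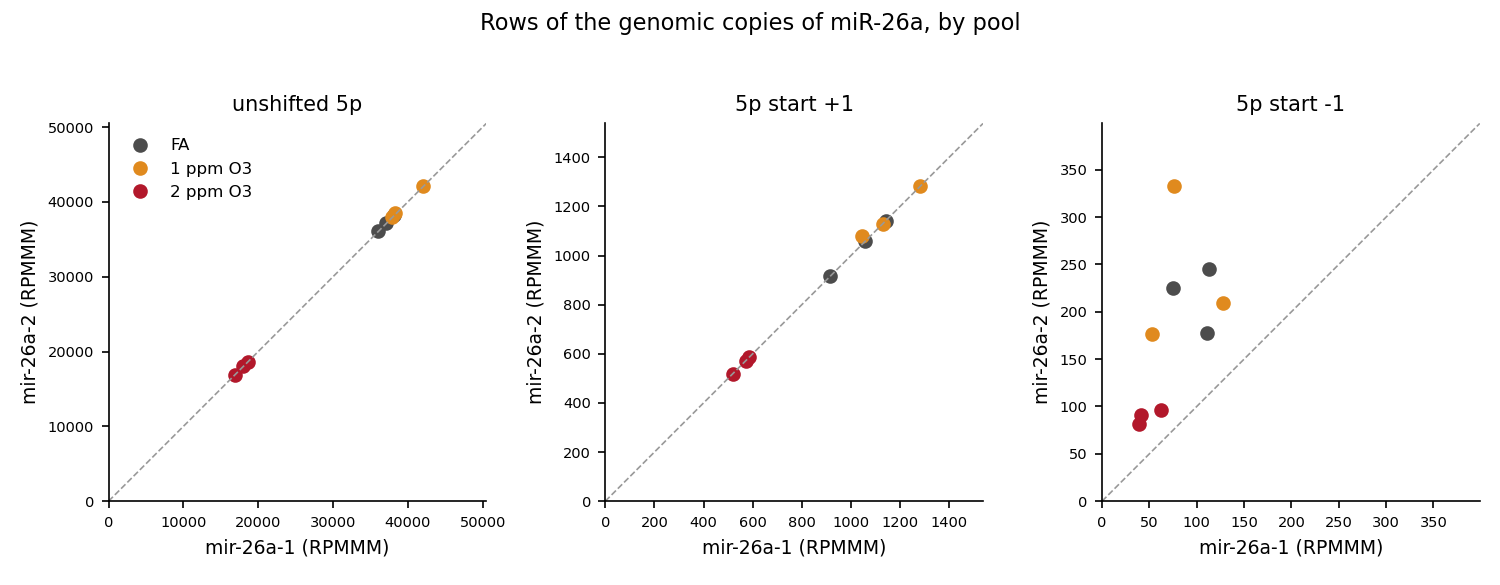
Level of mir-26a-2 against mir-26a-1 in each pool for the unshifted 5p arm, the form starting 1 base late and the form starting 1 base early, with the line of equality dashed. Points of the first 2 forms lie on the line or just above it. All 9 points of the early form lie farther above it, with mir-26a-2 at 60.9 to 81.5% of the sum.

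The entries closest in pattern were taken by Pearson's r of log2 levels over the 9 pools among 231 other unshifted entries, as a description. The pools share 3 exposures and the scaling, so r was high in general, with a median of 0.593 to mir-26a-2-5p and 0.602 to miR-26b-5p. Within the family, mir-26a-2-5p had r = 0.987 with miR-26b-5p, 0.839 with miR-26a-2-3p and 0.624 with miR-26b-3p. The other entries nearest to mir-26a-2-5p were let-7d-3p (r = 0.990), let-7c-1-5p and let-7c-2-5p, and both copies of miR-450a-5p, which were at 0 in all 2 ppm pools. The nearest to miR-26b-5p were let-7f-2-5p (r = 0.989), let-7f-1-5p, both copies of miR-30c-5p, and miR-191-5p (r = 0.984). let-7d-3p, for example, went from 3154 ± 62.3 RPMMM in FA to 3255 ± 80.4 at 1 ppm and 1244 ± 62.9 at 2 ppm.

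Other miRNAs known to repress Ezh2 were read from a list of 6 hairpins (mir-101a, mir-101b, mir-101c, mir-138-1, mir-138-2 and mir-214), of which 3 were in the table, with 6 entries tested. None of the 6 was DE at 1 ppm, where 13.2% of all entries were. Against FA, 3 of 6 were DE and lower at 2 ppm, where 29.3% of all entries were, and these 3 were miR-101 entries. miR-101a-3p was at 698 ± 112 RPMMM in FA, 466 ± 53.6 at 1 ppm and 271 ± 83.9 at 2 ppm, a log2 difference of -1.40 at 2 ppm (limma adjusted p = 0.00183). Its form starting 1 base early differed by -1.17 (limma adjusted p = 0.00134), and miR-101b-3p by -1.50 (limma adjusted p = 0.0118). The list's median at 2 ppm was -1.28 beside -0.83 over all entries. The miR-26 family, at 95519 ± 3679 RPMMM in FA, stood far above this list's sum of 2461 ± 227.

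Levels of miRNAs that mark cell types were summed by list, and no list covered alveolar macrophages. These sums do not measure which cells released the vesicles. By imaging flow cytometry, the paper found few EVs with EpCAM, an epithelial marker, and more with Siglec-F, a marker of alveolar macrophages. Airway epithelial miRNAs, with 8 of 8 hairpins present and none at 0 in any pool, summed to 76486 to 85983 RPMMM in FA, 57361 to 62317 at 1 ppm and 38618 to 42303 at 2 ppm, so the sums of all 3 exposures lay apart, where those of miR-26 overlapped between FA and 1 ppm. The members did not all follow the sum, to which mir-200b gave the largest part: mir-34b was at 5307 to 6826 RPMMM in FA, 2385 to 5073 at 1 ppm and 6556 to 7372 at 2 ppm, and mir-34c at 2 ppm overlapped with FA. Leukocyte miRNAs (3 of 4 hairpin names) summed to 1431 to 2129, 1848 to 2362 and 1285 to 1463 RPMMM, and of these mir-150 was at 0 in 8 of 9 pools. Erythroid miRNAs (3 of 6 hairpin names) summed to 884 to 1822, 150 to 343 and 158 to 948 RPMMM, with mir-144 at 0 in 7 of 9 pools. Endothelial mir-126 (1 of 2 hairpin names) was at 112 to 314, 445 to 938 and 764 to 912 RPMMM. The part of these cell types in the miR-26 levels was not tested.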

How the data were processed

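Small RNA-seq of BALF EVs from 9 pools, 3 per exposure, was used. The authors trimmed the reads, aligned them to build mm9 and counted miRNAs and isomiRs with miRquant, and deposited reads per 1000000 reads mapped to miRNAs (RPMMM, an RPM unit) with no read counts. Each column sums to 1000000 over all entries. Depth was estimated from the step between low values: 68.9 to 83.7% of them lay within 0.05 reads of a whole read, too few for a count test. Some entries shared by the miR-26a copies lay on 0.5 of a read (13 of 39), while 24 of 24 3p entries lay on whole reads, so copies were added. limma 3.58.1 (R 4.3.3) was fitted with a variance trend on log2(RPMMM + 1), with pseudocount 1 and a mean above 50 RPMMM, and was checked on simulated data. Single values were tested by exact two-sided permutation over pools (1680 arrangements for an order). Pools hold separate mice, as far as the labels say. Members, lists and tests were chosen with earlier results of these data known. All rows of the 3 hairpins were named, with the 5 entries most correlated to each 5p arm. RefSeq names matched 291 of 299 hairpins. Alternatives covered scaling, filter, pseudocount, model, copies, isomiRs and leaving out each pool.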

Additional observations from a re-analysis of the deposited data

How the results depend on the processing

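With each mature miRNA listed once, 4 of 4 tested miR-26 arms were DE and lower between 2 ppm and FA, where 74 of all 215 were. Between 2 and 1 ppm, 2 of 4 arms were DE and lower, where 47 of all 215 were. Median-of-ratios scaling and the total without miR-2137 and the unmatched hairpins gave 0 calls in both comparisons, and the total without miR-2137 gave 1 in each. Between 2 and 1 ppm, 7 of 458, 8 of 498 and 55 of 477 entries in all were DE and lower under them, in that order. Each of these scalings multiplies all values of a pool by 1 factor. The count between 2 and 1 ppm ran from 6 to 10 when single pools were left out, with 6 without 2 ppm pool 3. Of all 461 entries, 65 to 95 were DE and lower in these fits. No setting run gave a call between 1 ppm and FA. The ratio to miR-30 rose in 1 of 27 pairs with copies averaged, in 4 of 27 without isomiRs, and in 1 to 5 of 21 when single pools were left out. The ratio to let-7, the ratio of miR-26a-5p to miR-26b-5p, the isomiR share and the summed level kept their side of 0.05 by unadjusted p in all alternatives run. For the ratio to let-7 this exact permutation p rose to 0.0286 when certain single pools were left out. No adjusted p is given for these alternatives, so they do not show whether its adjusted p of 0.0476 would hold. The entries of miR-26a-5p starting 2 bases late turned from -0.85 to 0.00397 between 2 ppm and FA with the total without miR-2137 and the unmatched hairpins. miR-26b-3p, with an adjusted p of 0.0487, lost its call in 12 alternatives, among them each FA and each 1 ppm pool left out. Of 807 values for single entries under the alternatives, 80 lost the call by adjusted p or fold, 5 gained it, 2 turned (those just given) and 720 kept their side, of which 17 changed sign without passing the adjusted p in either fit. No paired analysis was possible because the labels carry no replicate numbers shared between the groups. At every depth, an entry at 0 may hold up to about 10 reads.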
